A study of Mus musculus with 8 samples.

Results

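The genes described here are Dazl and Stra8, which act at meiotic entry, the synaptonemal complex and chromosome axis genes Sycp1, Syce1, Sycp3 and Hormad1, the meiotic cohesin genes Rec8, Smc1b and Stag3, and the recombinase gene Dmc1. These 10 of 26180 RefSeq genes were chosen by name, and every CpG cytosine from 2 kb before the transcript start to the gene end was taken, with the promoter (-1 kb to +100 b) and the gene body (the rest of the gene) kept apart. Of the 2130064 cytosines measured, 412 lay in these loci, in 9 of the 10 genes. Dmc1 had no cytosine that passed the coverage minimum of 10 reads in every sample.

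DNA methylation was measured by reduced representation bisulfite sequencing (RRBS), which cuts DNA at CCGG and reads CpG-rich fragments, in samples labelled type A spermatogonia from F1 C3H/HeN mice at postnatal day 6. The 4 control pools came from offspring of dams on tap water, and the 4 arsenic pools from offspring of dams given 85 ppm sodium arsenite in tap water from gestational day 8 to 18. Each pool held 8 testes of 4 mice, and cells were taken by magnetic separation with an antibody to CD49f (Itga6), so a sample is a mean over mice and over the cells that the antibody held. The comparison asks whether exposure of the fetus left a difference in methylation in the sorted cells after birth. Distances count from the start of the RefSeq Select transcript, which lies inside the annotated gene span in Stra8, Dmc1, Stag3 and Rec8. Samples are called control 1 to 4 and arsenic 1 to 4 after their titles, and the pools are separate animals. The p-values of regions rest on the spread between these pools, while the read-based calls at single cytosines do not. The dams behind each pool are not given, and the methods limit testes per dam for fetal testes only. Litters shared between pools can thus not be told.

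Meiosis starts when retinoic acid induces Stra8 in germ cells that carry Dazl, an RNA-binding protein that makes them competent for it. Chromosomes are then organised on axes of meiotic cohesin (Rec8, Stag3 and Smc1b), Sycp3 and Hormad1, breaks are repaired between homologues by Dmc1, and homologues are joined by the transverse filament Sycp1 and central element proteins such as Syce1. Many such genes have CpG-containing promoters that are known to be methylated in somatic cells and free of methylation in germ cells. The E-box CACGTG and the letters GCGGGA, bound by the MAX/MGA and E2F6 subunits of a Polycomb complex, are known from promoters of germline genes that this complex keeps silent in other cells.

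Sequences were read from the RefSeq assembly GRCm38.p6, the build (mm10) of the data, on the strand of the gene and 5′ to 3′. The first set runs from 250 bases before to 29 bases after the first transcribed base (position 0) and is shown for the promoters with the highest (Dazl) and the lowest (Stag3) level, and for Hormad1, Sycp1 and Smc1b because their measured CpGs lie next to the start. Capitals mark the CpGs with a measured cytosine on either strand. The Stag3 window held none, so the measured stretch just before it is shown in the second set.
Dazl, chr17:50293591-50293870, minus strand: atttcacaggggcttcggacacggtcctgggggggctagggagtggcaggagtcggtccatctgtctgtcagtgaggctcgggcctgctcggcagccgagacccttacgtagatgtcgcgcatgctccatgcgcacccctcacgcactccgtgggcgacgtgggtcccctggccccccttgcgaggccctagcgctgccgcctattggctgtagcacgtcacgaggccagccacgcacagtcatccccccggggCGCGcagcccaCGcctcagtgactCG
Hormad1, chr3:95559427-95559706, plus strand: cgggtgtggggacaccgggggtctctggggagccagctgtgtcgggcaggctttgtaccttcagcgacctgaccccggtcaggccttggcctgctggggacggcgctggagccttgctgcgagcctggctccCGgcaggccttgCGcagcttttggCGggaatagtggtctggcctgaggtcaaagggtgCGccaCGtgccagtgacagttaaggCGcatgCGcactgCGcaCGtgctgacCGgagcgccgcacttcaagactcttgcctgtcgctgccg
Sycp1, chr3:102936071-102936350, minus strand: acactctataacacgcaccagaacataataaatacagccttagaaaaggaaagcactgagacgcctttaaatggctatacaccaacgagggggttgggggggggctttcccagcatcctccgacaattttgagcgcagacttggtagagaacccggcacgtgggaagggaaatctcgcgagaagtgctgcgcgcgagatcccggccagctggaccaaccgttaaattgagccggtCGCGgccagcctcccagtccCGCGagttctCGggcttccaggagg
Smc1b, chr15:85131928-85132207, minus strand: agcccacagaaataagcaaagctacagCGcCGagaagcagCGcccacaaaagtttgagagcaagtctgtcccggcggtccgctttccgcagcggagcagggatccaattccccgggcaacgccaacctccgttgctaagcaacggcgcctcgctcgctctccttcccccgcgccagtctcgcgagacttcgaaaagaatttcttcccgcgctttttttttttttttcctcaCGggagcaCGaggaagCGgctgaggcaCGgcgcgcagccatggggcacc
Stag3, chr5:138280259-138280538, plus strand: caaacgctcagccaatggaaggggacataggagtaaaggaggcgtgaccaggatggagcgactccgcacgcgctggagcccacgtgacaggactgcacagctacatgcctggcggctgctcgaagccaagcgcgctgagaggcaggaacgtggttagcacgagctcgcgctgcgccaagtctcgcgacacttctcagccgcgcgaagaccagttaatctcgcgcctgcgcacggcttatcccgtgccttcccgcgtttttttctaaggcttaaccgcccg

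The second set shows 3 stretches over which the level turned or stayed low, with measured CpGs in capitals: Dazl from +340 to +540 in intron 1, Smc1b from +130 to +290 in intron 1, and Stag3 from -410 to -300.
Dazl, chr17:50293080-50293280, minus strand: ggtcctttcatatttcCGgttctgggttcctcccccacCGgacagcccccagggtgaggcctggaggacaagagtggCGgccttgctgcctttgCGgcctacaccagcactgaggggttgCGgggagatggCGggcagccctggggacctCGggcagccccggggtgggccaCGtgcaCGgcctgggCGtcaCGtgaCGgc
Smc1b, chr15:85131667-85131827, minus strand: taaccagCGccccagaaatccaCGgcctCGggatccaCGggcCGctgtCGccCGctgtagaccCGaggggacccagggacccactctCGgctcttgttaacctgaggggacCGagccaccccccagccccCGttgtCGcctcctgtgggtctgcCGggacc
Stag3, chr5:138280099-138280209, plus strand: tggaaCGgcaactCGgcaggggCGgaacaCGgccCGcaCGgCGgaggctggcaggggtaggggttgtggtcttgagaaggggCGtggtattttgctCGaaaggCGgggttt

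Motifs were searched on both strands from 250 bases before to 50 bases after the start. CACGTG was found in Sycp1 (at -94), Sycp3 (at -64 and -43), Hormad1 (at -57 and -20) and Stag3 (at -170), 4 of 10 genes, against 7.15% of 32851 RefSeq promoters. GCGGGA was found in Sycp1, Sycp3, Hormad1, Dmc1, Smc1b, Stag3 and Rec8, 7 of 10 genes, against 19.98%. The cyclic AMP response element TGACGTCA was in 0 of 10 against 1.79%, and the GC box GGGCGG in Sycp3, Dmc1 and Stag3 against 35.7%. The CpGs of both E-boxes were measured in Hormad1, and the CpG of the GCGGGA match at +2 in Sycp1. CACGTG is its own reverse complement and the 4 motifs do not overlap in these matches.

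The labelled cell type was checked on promoters whose methylation separates germ cells from somatic cells. Promoters of germ cell genes outside the 10 (10 of 11 measured, among them Ddx4, Mael and Tdrd1), which are known to be unmethylated in germ cells, had a list mean of 77.9 to 80.6% in the control pools and 79.0 to 81.1% in the arsenic pools. Maternally methylated imprinted promoters (7 of 12 measured), unmethylated in male germ cells, lay at 56.3 to 60.5% and 52.2 to 60.1%. The stretch 2 to 4 kb before H19 (4 cytosines), where both alleles of male germ cells are known to carry methylation, lay at 58.5 to 81.2% and 58.1 to 69.5%. Promoters of Sertoli cell genes (5 of 7 measured) lay at 7.95 to 9.27% and 7.43 to 9.43%, those of spermatogonial genes (6 of 10) at 1.82 to 3.76% and 1.42 to 2.63%, the peritubular gene Myh11 (1 of 2) at 0.296 to 3.29% and 0.751 to 2.02%, and 0 of 5 Leydig cell genes had a measured promoter. The germ cell and imprinted lists go against the label, so the samples are named by their labels only. The study's own check of the sorted cells was by real-time PCR of marker genes and by principal component analysis of methylation with other stages, neither analysed here. The part of other cell types in the levels below was not tested. A share of cells with a methylated locus and a share of methylated copies in every cell cannot be told apart in these pools.

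**Figure D1:**
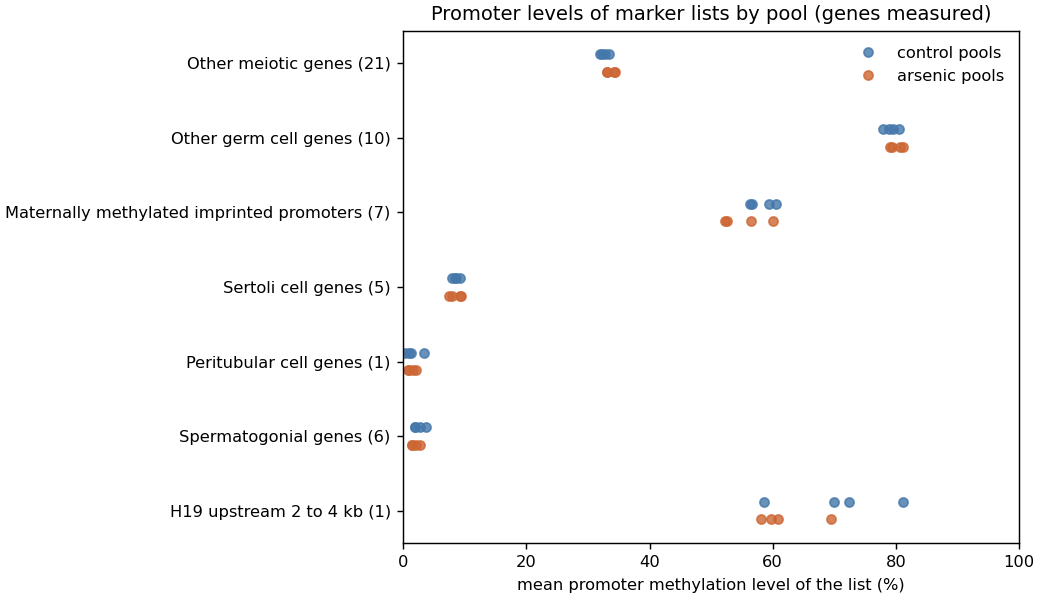
Mean promoter methylation level (%) of each marker list in the 4 control pools (blue) and 4 arsenic pools (orange), with the number of genes measured in brackets. H19 is a stretch before the gene. Germ cell gene promoters lie near 80% and maternally imprinted promoters between 52.2 and 60.5% in all 8 pools.

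Of the 412 cytosines, 124 lay in promoters, 261 in gene bodies and 27 between -2 kb and -1 kb. A promoter level (the unweighted mean over at least 3 cytosines) was available for 6 genes: Dazl (12 cytosines), Stra8 (6), Sycp1 (28), Hormad1 (28), Smc1b (9) and Stag3 (41). Sycp3, Rec8 and Syce1 had no measured promoter cytosine and are described by the gene body alone. The Syce1 promoter holds 0 CCGG sites, that of Rec8 1, that of Sycp3 3 and that of Dmc1 5. By level, 244 of the 412 cytosines (59.2%) were at 80% or above and 81 (19.7%) under 10%, of which 79 lay in Dazl, Smc1b and Stag3. The median level was 84.3% over 228 cytosines in introns, 88.8% over 57 in 5′ untranslated exons, 87.2% over 12 in coding exons and 68.3% over 115 before the start. Coverage of the 412 cytosines ran from 10 to 428 reads, and the median over cytosines of the lowest coverage in any sample was 25. Total reads on CpGs were 96428439 to 121351202 in the control pools and 97433083 to 133406260 in the arsenic pools. Between pairs of pools, levels over the 412 cytosines correlated with r = 0.940 to 0.961, as a description over cytosines that share reads. No pair of the 8 samples held the same counts.

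The 6 measured promoters lay at opposite ends of the methylation scale. Dazl, Sycp1, Stra8 and Hormad1 were at 80% or above, while Smc1b and Stag3 were under 5%. Over all 12145 measured promoters the median level was 1.77%, with 5.14% of them at 80% or above and 77.9% under 10%. In order of level, with the percentile among all promoters, Dazl stood at 94.9% (percentile 99.8), Sycp1 at 85.5% (96.9), Stra8 at 83.5% (96.2), Hormad1 at 80.9% (95.1), Smc1b at 2.85% (65.3) and Stag3 at 1.17% (27.0). The order of Sycp1, Stra8 and Hormad1 depended on the setting, since with at least 20 reads Sycp1 read 80.8%, Stra8 82.2% and Hormad1 82.4%, and with a coverage-weighted level Sycp1 read 79.4%, below 80%. Ranges over the 8 pools overlapped between Sycp1, Stra8 and Hormad1 and between Smc1b and Stag3, while Dazl reached into the range of Sycp1 and Stra8 through arsenic 2 alone. The CpG observed over expected ratio of the promoter was 0.798 for Stag3, 0.757 for Dazl, 0.613 for Smc1b, 0.577 for Sycp1, 0.548 for Hormad1 and 0.363 for Stra8. Among the 5915 measured promoters with a ratio of at least 0.6, the median level was 1.38% and 28 (0.473%), Dazl among them, were at 80% or above.

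**Figure D2:**
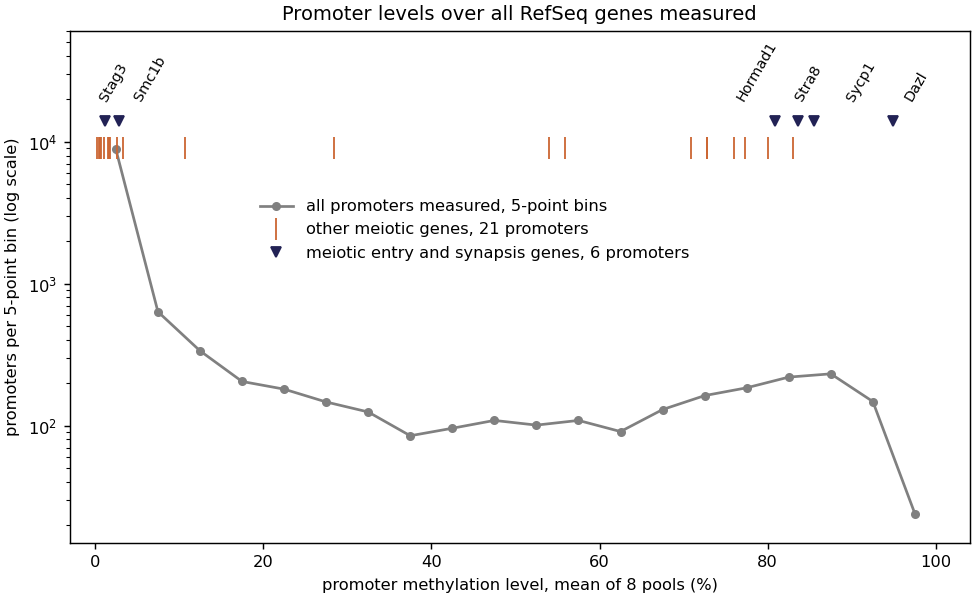
Number of promoters (log scale) by methylation level in bins of 5 points, as the mean of 8 pools (%), for all 12145 promoters (line), with the 6 meiotic entry and synapsis genes (triangles) and 21 other meiotic genes (ticks) marked at their own level. Stag3 and Smc1b lie in the lowest bin with 8822 promoters, and Hormad1, Stra8, Sycp1 and Dazl lie at 80% or above.

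Dazl (chr17:50279393-50293620, minus strand) carried the highest promoter level of the 6 with these bounds. With -2 kb to +500 b the order changed, and Stra8 (86.7%) stood above Dazl (85.1%) and Sycp1 (85.05%). The 12 promoter cytosines of Dazl up to +100 b run from +5 to +97, all on the plus strand within exon 1 and the 5′ untranslated region, so this level says nothing of the bases before the start. The promoter level was 95.2, 95.8, 96.5 and 99.1% in control 1 to 4 and 95.5, 89.2, 93.7 and 94.2% in arsenic 1 to 4. Arsenic 2 was the lowest pool and control 4 the highest, while arsenic 1 lay among the controls, so the groups overlapped. The group levels were 96.7% ± 1.73 and 93.2% ± 2.74 (SD, n = 4 each), and the difference was -3.48 percentage points (95% interval -7.44 to 0.483, two-sided exact permutation p = 0.0571, limma adjusted p = 0.907). All 12 cytosines were lower on average in the arsenic pools, but their near-equal coverage (111 to 152 reads) shows that they share reads.

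Within the Dazl locus the level fell from high to near 0 inside intron 1, in every pool. Over 44 cytosines from +5 to +293 the mean was 88.3% (pools 84.4 to 94.7%), over 7 cytosines from +357 to +490 it was 64.9% (50.1 to 71.7%), and over 26 cytosines from +513 to +845 it was 1.91% (0.379 to 3.21%). The last cytosine of the middle stretch, at +490, read 29.1% and the next one, at +513, 0.625%. All 65 gene body cytosines of Dazl lie at or before +845, so its gene body level of 50.04% ± 2.58 (SD over 8 pools) averages these unlike stretches and is no level of the whole body. Between the highly methylated CpGs of exon 1, 4 cytosines of 2 adjacent CpGs at +156 to +159 read 59.8% ± 5.26, against 91.2% ± 4.13 over the other 40 cytosines of +5 to +293. They were lower in 8 of 8 pools, with differences of -43.8 to -25.5 points, and this pair was picked out after its values were seen. The 21 bases around it are shown with its CpGs in capitals.
Dazl, chr17:50293450-50293470, minus strand: ccccgtCGCGtggcttctgct

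Sycp1 (chr3:102818499-102936100, minus strand) encodes the transverse filament of the synaptonemal complex. The promoter level was 84.8, 83.9, 86.8 and 88.6% in control 1 to 4 and 80.3, 90.7, 82.4 and 86.3% in arsenic 1 to 4. The groups overlapped, with arsenic 2 the highest and arsenic 1 the lowest pool of all 8. The group levels were 86.0% ± 2.10 and 84.9% ± 4.58 (SD, n = 4 each), and the difference was -1.15 percentage points (95% interval -7.31 to 5.01, two-sided exact permutation p = 0.629, limma adjusted p = 0.998). The level was high on both sides of the start: 80.01% from -843 to -599 (9 cytosines), 87.9% from -14 to +114 (22) and 86.8% from +632 to +998 in intron 2 (23). The cytosine of the GCGGGA match, at +6, read 89.1%.

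Stra8 (chr6:34920163-34939344, plus strand), the gene induced by retinoic acid at meiotic entry, had 6 promoter cytosines, from +17 to +91 in the untranslated exon 1. The promoter level was 85.9, 79.2, 87.3 and 92.6% in control 1 to 4 and 68.4, 80.7, 88.1 and 86.1% in arsenic 1 to 4. Arsenic 1 was the lowest pool, the other 3 arsenic pools lay within the control range, and the interval of the difference was the widest of the 6 promoters. The group levels were 86.3% ± 5.50 and 80.8% ± 8.84 (SD, n = 4 each), and the difference was -5.41 percentage points (95% interval -18.2 to 7.32, two-sided exact permutation p = 0.457, limma adjusted p = 0.980). From +242 to +454 in intron 1 the level was 88.1% (26 cytosines, pools 81.8 to 93.2%).

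Hormad1 (chr3:95559677-95587863, plus strand), an axis protein of unsynapsed chromosomes, was measured on both strands from -450 to -8. The promoter level was 79.4, 75.4, 79.1 and 87.5% in control 1 to 4 and 79.8, 83.6, 81.9 and 80.6% in arsenic 1 to 4. Control 2 was the lowest and control 4 the highest pool, and the arsenic pools lay between them. The group levels were 80.4% ± 5.07 and 81.5% ± 1.68 (SD, n = 4 each), and the difference was 1.11 percentage points (95% interval -5.43 to 7.64, two-sided exact permutation p = 0.686, limma adjusted p = 0.997). The 4 cytosines in its 2 E-boxes (at -55, -54, -18 and -17) read 59.6% ± 3.32 over the 8 pools, against 86.8% ± 6.64 over the other 14 cytosines from -118 to -8. They were lower in 8 of 8 pools, with differences of -39.0 to -15.2 points, on 12 to 48 reads each, and the contrast was chosen after the levels were seen. The CpG of the GCGGGA match just before them read 86.3% on the plus strand and 80.7% on the minus strand.

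Smc1b (chr15:85064689-85131957, minus strand), the SMC subunit of meiotic cohesin, had a promoter near 0. Its 9 promoter cytosines run from -275 to +9, and the gene Ribc2 starts on the opposite strand at -142. The promoter level was 3.70, 1.32, 3.65 and 5.87% in control 1 to 4 and 0.758, 4.41, 2.09 and 0.973% in arsenic 1 to 4. The groups overlapped, with control 4 the highest pool and arsenic 1 the lowest. The group levels were 3.64% ± 1.86 and 2.06% ± 1.67 (SD, n = 4 each), and the difference was -1.58 percentage points (95% interval -4.64 to 1.48, two-sided exact permutation p = 0.314, limma adjusted p = 0.977). Upstream of it, 13 cytosines from -1840 to -1392 read 86.0% (pools 84.2 to 88.2%). Downstream, in intron 1, the level rose with distance from the start, to 28.4% over 16 cytosines from +137 to +194 (21.03 to 33.4%) and 63.7% over 9 from +217 to +285 (54.2 to 68.2%). Its 25 gene body cytosines all lie in that rise, so the gene body level of 41.1% ± 3.40 describes the edge and not the body.

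Stag3 (chr5:138272514-138312397, plus strand), the stromal antigen subunit of meiotic cohesin, had the lowest promoter level. Its 41 promoter cytosines run from -905 to -306, and the gene Gpc2 starts on the opposite strand at -572. The promoter level was 0.882, 1.04, 0.859 and 0.429% in control 1 to 4 and 0.664, 3.57, 0.772 and 1.14% in arsenic 1 to 4. Arsenic 2 stood apart, through the minus strand: over its 10 minus-strand cytosines from -404 to -306, on 11 or more reads each, the level was 11.98% in arsenic 2 and 0 to 0.833% in the other 7 pools. The group levels were 0.803% ± 0.262 and 1.54% ± 1.37 (SD, n = 4 each), and the difference was 0.734 percentage points (95% interval -0.974 to 2.44, two-sided exact permutation p = 0.429, limma adjusted p = 0.992). Over the 31 plus-strand cytosines arsenic 2 read 0.856%, and without arsenic 2 the promoter difference was 0.0562. The low stretch was bounded on both sides: 78.0% from -1981 to -1403 (10 cytosines), 1.54% from -1115 to -306 (44) and 84.7% from +284 to +605 in intron 1 (25), with no measured cytosine between -306 and +284. In that intron the CpG at +465 read 57.0% over both strands, below the other 23 cytosines in 8 of 8 pools, with differences of -37.6 to -21.4 points, again picked out after its values were seen.

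**Figure D3:**
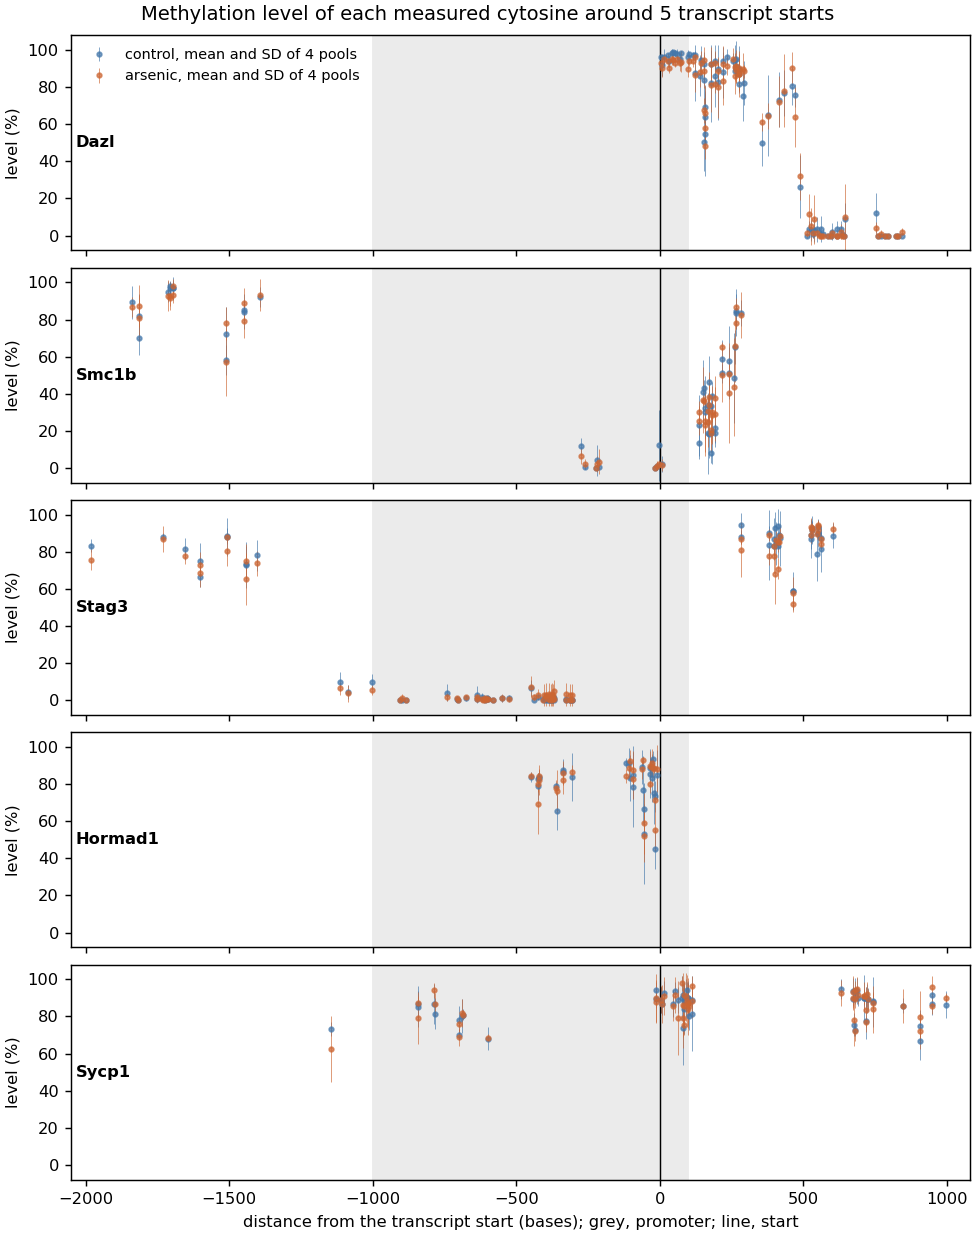
Methylation level (%) of each measured cytosine against its distance from the transcript start (bases) for Dazl, Smc1b, Stag3, Hormad1 and Sycp1, as mean and SD of the 4 control pools (blue) and the 4 arsenic pools (orange). Grey marks the promoter. Dazl falls from near 90% to near 0 at about +500, Smc1b rises after the start, Stag3 is near 0 from -1115 to -306, the lowest Hormad1 cytosines are those at -54 and -17 in its E-boxes, and no Sycp1 cytosine within the plotted span is near 0.

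Gene bodies were measured in 9 genes. Apart from Dazl and Smc1b, whose cytosines sit at edges, their levels lay between 79.5% (Sycp3) and 95.9% (Hormad1), above the median of 56.0% over 19022 gene bodies. Sycp3, an axial element protein, had 24 cytosines, all from +252 to +977 in intron 1, and read 77.6, 74.7, 81.2 and 77.7% in control 1 to 4 and 86.4, 78.0, 83.7 and 76.9% in arsenic 1 to 4. Arsenic 1 and arsenic 3 were its highest pools and the other 2 arsenic pools lay within the control range. Rec8, the kleisin of meiotic cohesin (chr14:55618002-55625395), was covered by 4 cytosines in exon 7 and intron 7 at 85.3, 88.7, 86.1 and 87.1% in control 1 to 4 and 84.2, 89.9, 86.3 and 80.5% in arsenic 1 to 4. Syce1, a central element protein (chr7:140777229-140787854), was covered by 6 cytosines in intron 1, intron 11 and exon 12 at 93.0, 92.9, 92.5 and 96.8% in control 1 to 4 and 93.7, 90.5, 88.6 and 93.4% in arsenic 1 to 4. The Stag3 body (44 cytosines) read 85.3% ± 1.95, Hormad1 (6, in intron 3) 95.9% ± 1.65, Sycp1 (39) 84.6% ± 2.15 and Stra8 (48) 81.7% ± 2.54 (SD over 8 pools). In the last 2 genes some minus-strand cytosines, on 14 to 32 reads, stood far below the level of the body. They were Sycp1 +88953 at 1.66%, Stra8 +6343 at 3.76% and Stra8 +6387 at 15.3%, and those of Stra8 are adjacent among its measured cytosines.

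In the comparison of arsenic with control pools, 0 of 6 promoters and 0 of 9 gene bodies of these genes passed the threshold (limma, Benjamini-Hochberg adjusted p of at most 0.05 over all regions of the kind), against 0% of 12145 promoters and 0.00526% of 19022 gene bodies. At an unadjusted limma p under 0.05 the counts were also 0 of 6 and 0 of 9, against 663 promoters (5.46%) and 1086 gene bodies (5.71%), and logistic regression with overdispersion called 0 and 0. The lowest adjusted p was 0.907 among the 6 promoters and 0.927 among the 9 gene bodies. The pools of the 2 groups overlapped in all 15 regions, that is 0 of 6 promoters and 0 of 9 gene bodies did not overlap, against 3.01% of all promoters and 3.88% of all gene bodies. With 4 pools against 4, the smallest two-sided p of the exact permutation test is 0.0286. Dazl came nearest among the promoters (exact permutation p = 0.0571), and its interval allows a difference from -7.44 to 0.483 points. Promoter differences ran from -5.41 (Stra8) to 1.11 points (Hormad1). Both ends moved with single pools or settings. Stra8 stood at -1.28 without arsenic 1, and Hormad1 changed sign without control 2 (-0.532), at a minimum of 20 reads (-1.97) and with a coverage-weighted level (-0.388). The median of the 6 was -1.36 points, against -0.0534 over all promoters. These medians are not matched for level, since all promoters had a median level of 1.77% and 4 of the 6 lay at 80% or above. Promoters of germ cell genes outside the 10, at a median level of 81.8%, had a median difference of 0.321 points (10 measured). The Dazl difference was -2.16 without arsenic 2. With a promoter from -2 kb to +500 b the differences were -0.646 (Dazl), -0.649 (Stra8) and -0.0527 points (Smc1b). The Sycp1 difference ran from -3.07 without arsenic 2 to 0.387 without arsenic 1. That of Smc1b was -0.833 without control 4, whose cytosine at -2 read 40.0% against at most 8.33% in the other 7 pools, at a coverage of 10 to 40 reads.

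Gene body differences ran from -2.27 points (Syce1) to 3.44 (Sycp3), with a median of 0.116 against -0.268 over all gene bodies. Sycp3 stood at 1.73 without arsenic 1, and Syce1 at -1.28 without control 4 and -1.29 without arsenic 3. For Sycp3 the groups were 77.8% ± 2.66 and 81.2% ± 4.56 (SD, n = 4 each), and the difference was 3.44 percentage points (95% interval -3.02 to 9.90, two-sided exact permutation p = 0.257, limma adjusted p = 0.927). For Syce1 they were 93.8% ± 1.99 and 91.6% ± 2.44, and the difference was -2.27 percentage points (95% interval -6.12 to 1.58, two-sided exact permutation p = 0.286, limma adjusted p = 0.948). Its 2 measured stretches had unlike values: 3 cytosines from +2931 to +2959 read 97.4, 96.6, 94.7 and 100% in control 1 to 4 and 94.6, 93.4, 86.9 and 91.9% in arsenic 1 to 4, with groups that did not overlap (-5.48 points), and 3 from +9849 to +9913 differed by 0.944 points. The bounds of these stretches were set after levels were seen, so no test is given. In every other stretch of consecutive measured cytosines set in this way, the groups overlapped. The share of such stretches over all genes was not computed, and groups did not overlap in 3.88% of all gene bodies and 2.1% of all CpGs. For Rec8 the difference was -1.55 percentage points (95% interval -6.66 to 3.57, two-sided exact permutation p = 0.543, limma adjusted p = 0.938), and it was 0.0204 without arsenic 4 and -3.10 without arsenic 2. The remaining 6 bodies had intervals within -5.97 to 6.71 points and exact permutation p-values from 0.286 to 0.971. Between -2 kb and -1 kb, Smc1b differed by 0.194 points (exact permutation p = 0.914). Stag3 read 64.4, 64.2, 63.1 and 60.6% in control 1 to 4 and 58.1, 60.6, 61.5 and 59.7% in arsenic 1 to 4 there, a difference of -3.09 points (95% interval -5.85 to -0.321, exact permutation p = 0.0571, limma adjusted p = 0.980), with control 4 below arsenic 3. This Stag3 level averages unlike stretches. Its 10 cytosines from -1981 to -1403 read 78.0% and differed by -3.14 points, and the others belong to the low stretch that starts at -1115.

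**Figure D4:**
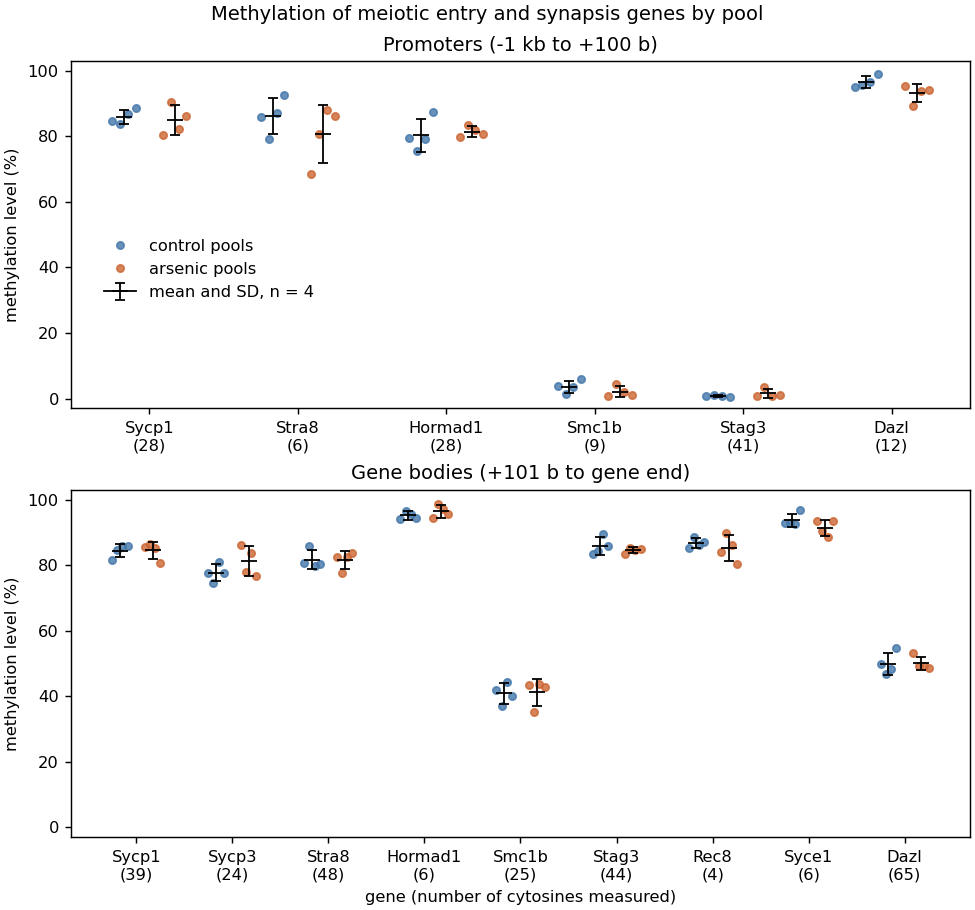
Methylation level (%) of each measured promoter (top) and gene body (bottom) in the 4 control pools (blue) and 4 arsenic pools (orange), with mean and SD. The number of cytosines is under each gene. In all 15 regions the pools of the groups overlap.

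**Figure D5:**
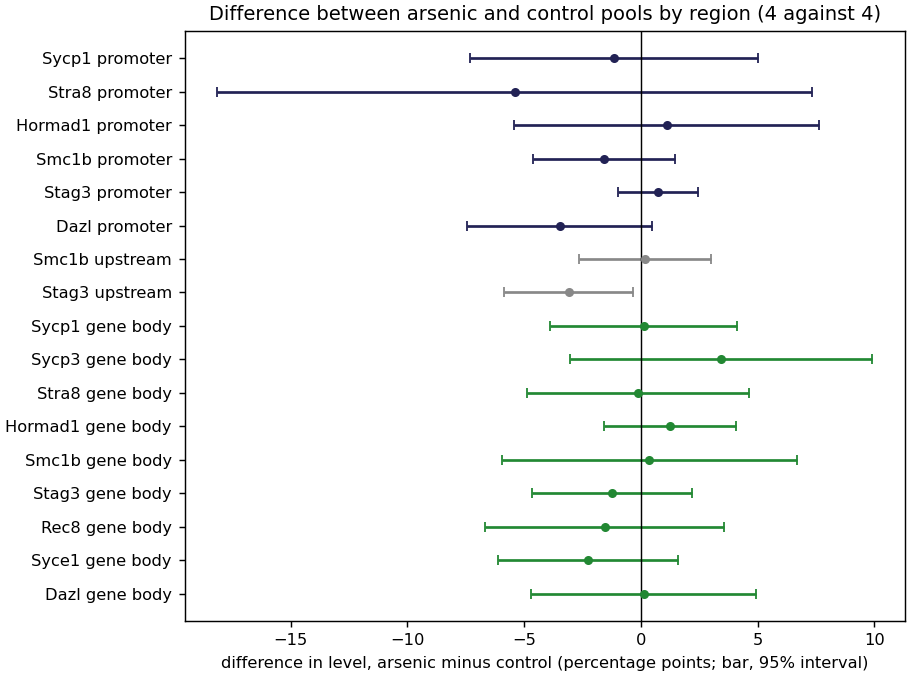
Difference in level between arsenic and control pools (percentage points) with its 95% interval for 6 promoters, 2 upstream stretches and 9 gene bodies. All intervals but that of the Stag3 upstream stretch (-5.85 to -0.321) include 0.

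At single cytosines, differentially methylated cytosines (DMCs) were called by logistic regression on pooled reads (q of at most 0.01 and at least 10 points), a test that takes reads and not pools as replicates. It called 2 of the 412 cytosines (0.485%), against 0.552% of all 2130064. Both lie in intron 1 and are shown with the called CpG in capitals.
Stag3, chr5:138280899-138280929, plus strand: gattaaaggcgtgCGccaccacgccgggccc
Dazl, chr17:50293320-50293340, minus strand: aggtttaaaaatCGgcctttt
The cytosine of Stag3 at +403 (chr5:138280912-138280912, plus strand) read 84.2, 100, 100 and 88.2% in control 1 to 4 and 55.6, 72.2, 54.8 and 88.7% in arsenic 1 to 4, on 18 to 53 reads. The difference in read-weighted level was -20.7 points (q = 0.00396), with control 1 and control 4 below arsenic 4. The cytosine of Dazl at +292 (chr17:50293328-50293328, minus strand) read 79.5, 55.9, 78.7 and 87.2% in control 1 to 4 and 100, 90.5, 79.1 and 90.0% in arsenic 1 to 4, on 47 to 88 reads. Its difference was 14.2 points (q = 0.00463), with control 1 and control 4 above arsenic 3. In limma, which uses the spread between pools, neither was called (q = 0.972 for both), and over all CpGs limma called 0, with 108901 (5.11%) at an unadjusted p under 0.05 and 20 of the 412 (4.85%). The Stag3 call was lost without control 2, control 3, arsenic 1 or arsenic 3 (differences of -18.6 to -15.6 points, q = 0.0148 to 0.0427), and the Dazl call without control 2, arsenic 1, arsenic 2 or arsenic 4 (q = 0.0143 to 0.172). The Dazl difference was 8.03 points without control 2 and 11.6 to 13.97 without each of those arsenic pools.

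The Stag3 difference lay on 1 strand. Over the plus-strand cytosines of 3 CpGs (+399, +403 and +411), the arsenic pools were -19.3 points from the control pools, and over the minus-strand cytosines of the same CpGs 1.27 points (two-sided exact permutation p = 0.800). The plus-strand cytosines were put together after their values were seen, so no test is given for them. The Dazl CpG at +292 read 82.3% in control and 88.6% in arsenic pools on its other strand. Groups did not overlap at 8 of the 412 cytosines (1.94%), against 2.1% of all CpGs, so these genes held such cytosines about as often as the whole table. They were lower in the arsenic pools at Sycp1 +75157, Smc1b -1706, Stag3 +411, Syce1 +2934, Dazl +53 and Dazl +102, and higher at Hormad1 -59 and Smc1b +193. Their differences in mean level ran from -23.1 points (Stag3 +411) to 18.96 points (Smc1b +193). Over the 412 cytosines, 213 were lower in the arsenic pools and the median difference was -0.197 points.

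Other genes of meiosis (42 listed, 21 with a measured promoter) had a median promoter level of 10.7%, with 2 at 80% or above and 10 under 10%, against 4 and 2 of the 6 genes above. Their highest promoters were Majin, a telomere attachment protein, at 83.01%, Sycp2, an axial element protein, at 80.02% and Spata22, a recombination protein, at 77.3%. Their lowest were Prdm9, which sets recombination hotspots, at 0.206%, the helicase gene Hfm1 at 0.480% and Brme1 at 0.568%. In the comparison of groups, limma called 0 of 21 promoters and 0 of 36 gene bodies, against 0% and 0.00526% of all, and the groups did not overlap in 0 and 1 of them, against 3.01% and 3.88% of all. Their median difference was 0.357 points over promoters and -0.207 over gene bodies, where the median level was 77.4%.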

How the data were processed

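Per the labels and the study's methods, the authors trimmed reads with Trim Galore (0.6.5), mapped them to mm10 with Bismark (0.22.3) and took CpGs covered by at least 10 reads in all 8 samples with methylKit (1.22.0). The deposited table gives, for each cytosine and sample, counts of methylated (C) and unmethylated (T) reads, with the strands apart and no molecular identifiers, so reads are not independent molecules. Of 2131605 cytosines, the 2130064 on chromosomes 1 to 19, X and Y were used here. The level of a cytosine is the percentage of C reads, and that of a region is the mean over at least 3 cytosines. Regions were tested with limma (3.58.1) on log2((C + 1)/(T + 1)) of summed counts over all promoters or gene bodies, and by two-sided exact permutation of 4 against 4 pools. The 95% intervals of differences use the pooled variance of both groups. DMCs were called at the study's thresholds by logistic regression on pooled counts. The likelihood ratio test and the Benjamini-Hochberg adjustment over all cytosines were chosen here, so calls need not be those of methylKit. Scripts ran in Python (3.11.15), scipy (1.17.1) and R (4.3.3), and were tested on simulated data.

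The members and lists were chosen with earlier results of these data known. All 10 genes and every member DMC are named, and of other meiotic genes the 3 highest and 3 lowest promoters. The promoter sequences follow the rule of highest and lowest level, and those of Hormad1, Sycp1 and Smc1b, the shorter stretches, the stretch bounds and the cytosines whose groups did not overlap were chosen after values were seen. Of the 10 genes, 10 matched the RefSeq tables. Alternatives changed the coverage minimum, strand handling, region bounds, weighting, test, pseudocount, replicate block and the samples included.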

Additional observations from a re-analysis of the deposited data

Results flagged for a closer look

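In 52 groups of 4 pools (promoter, upstream and gene body levels, the 2 named cytosines and the marker lists), the highest or lowest pool was compared with the others by Dixon's ratio of its gap to the range (critical value 0.829 for 4 samples). Chance marks about 1 in 20 such groups, and 5 of 52 were marked. The Stra8 gene body read 86.1% in control 2 against 79.95 to 80.6% in the other control pools. The Smc1b gene body, the intron 1 edge, read 35.1% in arsenic 2 against 42.7 to 43.7% in the other arsenic pools. The Stag3 promoter read 3.57% in arsenic 2 against 0.664 to 1.14%, the value carried by its minus-strand cytosines. The Syce1 gene body read 96.8% in control 4 against 92.5 to 93.0%. The Dazl gene body read 53.2% in arsenic 1 against 48.6 to 49.3%. The 5 values came from 4 pools, with arsenic 2 named by Smc1b and Stag3.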

How the results depend on the processing

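The counts of called promoters (0 of 6) and gene bodies (0 of 9) stayed at 0 under every alternative run, though 2 promoters of other genes passed with a promoter from -2 kb to +500 b. The 2 DMCs became 1 at a minimum of 20 or of 30 reads and 1 with both strands of a CpG summed, the Dazl cytosine in each case. They became 0 with overdispersion (F test) and 0 with limma, which also called 0 of all 2130064 cytosines. Over all cytosines the count was 9160 of 1285363 at 20 reads, 6874 of 822917 at 30 reads and 6700 of 1551623 with strands summed. The Stag3 cytosine lay below both read minima, so it was not tested there. With strands summed the Stag3 CpG differed by -7.58 points (logistic regression q = 0.0715). Leaving out 1 pool gave 0 to 3 DMCs of these genes, against 11533 to 13107 of 2130064 over all cytosines. The count was 3 without control 1 (12621 over all) or control 4 (13107) and 0 without arsenic 1 (12103). Without control 2 it was 2 (11796 over all), though both named calls were lost. Each omission of a control pool thus called at least 1 cytosine other than the 2 named. Regions whose groups did not overlap numbered 0 to 1 when 1 pool was left out, namely the Dazl promoter without control 1 (-3.96 points) or arsenic 1 (-4.25 points) and the Hormad1 promoter without control 4 (3.48 points), against 5.55 to 6.22% of all promoters and 6.47 to 7.62% of all gene bodies over the 8 omissions. Over all promoters, same-numbered pools did not deviate together (correlations -0.0152 to 0.0169, against -0.0236 to 0.0163 for other pairs). The main tests therefore did not pair samples by number. Of these promoters 77.9% lay under 10%, so the check says little of a shared litter or batch, which was not tested. With the replicate block 2 DMCs of these genes were called, as without it, and 8029 over all cytosines against 11752. Over the 15 regions, the alternatives gave 193 values of a difference, of which 189 moved by no more than the replicate SD and 4 by more. Of 73 values of a level, 62 and 11 did so. That SD was larger than most of the differences themselves, so this is a lenient measure. Taking the promoter of any curated transcript changed no value in the 15 regions. The sign of the difference turned under at least 1 alternative in 9 of the 15 regions and held in 6, the Dazl, Stra8 and Smc1b promoters and the Sycp3, Syce1 and Hormad1 gene bodies. Levels at edges depended on the bounds: with a promoter from -2 kb to +500 b, Smc1b read 46.2%, Stag3 29.1% and Dazl 85.1%. With those bounds the promoter differences of Dazl, Stra8 and Smc1b were -0.646, -0.649 and -0.0527 points. Those of Stag3 changed sign (-1.41 for the promoter and 1.03 for the gene body, neither called). The Dazl gene body ran from 1.91% with those bounds to 66.02% at 20 reads. The causes were not tested. With 4 pools against 4 and 10 to 428 reads per cytosine, the printed intervals give the range of differences that these data do not exclude.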
